A study of Mus musculus with 2 samples.

Results

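The genes described here are those of the cornified envelope and the epidermal differentiation complex, picked out by a rule on gene symbols. They comprise the late cornified envelope (Lce) genes, the small proline-rich (Sprr) genes, and the single genes Flg, Flg2, Hrnr, Rptn, Tchh, Tchhl1, Crnn, Lor, Ivl, Cnfn, Krtdap, Cdsn, Asprv1 and Casp14. The rule matched 51 of the 40879 gene symbols in the count tables. These were 21 Lce genes, 16 Sprr genes, 7 genes of the S100-fused type, Lor and Ivl, and 5 genes that lie outside the complex (Cnfn, Krtdap, Cdsn, Asprv1 and Casp14).

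The outermost cells of the epidermis and other cornified epithelia die in a programmed way and replace their plasma membrane with the cornified envelope, a shell of structural proteins that transglutaminases cross-link to each other. Loricrin, involucrin, the small proline-rich proteins and the late cornified envelope proteins are building blocks of this shell, whereas filaggrin packs the keratin filaments inside the cell and is later broken down to amino acids that hold water. Most of these genes sit next to each other in the epidermal differentiation complex and are transcribed late in keratinocyte differentiation. The columnar epithelium of the intestine forms no cornified envelope, although Sprr2a genes are also transcribed there, and the squamous epithelium of the gut lies at its upper end and in the anal canal.

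The study compared gene expression in the intestine between ERAP1 wild type (WT) and ERAP1+/- mice, both on a C57BL/6 background. Each genotype is represented by 1 library, made from RNA pooled in equal amounts from 3 mice, so that no spread between mice can be estimated and no test between genotypes was possible. The labels name the tissue only as intestine and give no treatment or age, while the paper describes the sequenced tissue as colonic and the mice as being at steady state. The control mice of the study were 8 weeks old and drank regular water for 28 days. The ERAP1+/- line goes back to 1 embryonic stem cell clone with a tm1a allele, crossed with a Cre strain whose promoter is not given in the sources used here, and the floxed exons are exons 6 and 7 of Erap1.

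The number of counted reads was 8114826 for WT and 8907515 for the library labelled ERAP1+/-, all taken from the 3′ ends of polyadenylated transcripts. Erap1 itself had 229 and 2 reads, a level of 0.730% of WT (95% interval 0.0878% to 2.67%), whereas the label leaves 1 allele intact, so the second library is named by its label throughout. These 3′ reads lie outside exons 6 and 7 and do not check the deletion. Xist had 1635 and 6451 reads and the Y-linked Ddx3y 319 and 29 reads, so the sex make-up of the pools differed together with genotype, and sex and genotype cannot be told apart. All 12 colon epithelial genes (Epcam, Cdx1, Cdx2 and others) had 86 or more reads in each library, and their summed level in the library labelled ERAP1+/- was 91.7% of WT. That sum leans on Muc2, at 229% of WT, whereas 8 of the 12 had a negative log2 difference and their median was -0.34. Levels are given as reads or as CPM (counts brought to a shared library size by TMM, a trimmed-mean scaling), and differences as log2(CPM + 1) of the library labelled ERAP1+/- minus WT, a scale that understates differences of genes with few reads. The 95% intervals are exact but hold only the error of counting reads. Where no read was found, a level of up to 3 reads is possible (0.386 CPM in WT, 0.322 CPM in the other library). All "at least" folds are set against that limit and leave out the counting error of the WT reads. Exact 95% limits are smaller, for Hrnr 168-fold instead of 207-fold. Lower or higher means past 2-fold where 1 or both libraries reach a log2(CPM + 1) of 4.

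Together the members took 25416 reads in the WT library, which is 0.313% of all its reads, and 2174 reads or 0.0244% in the library labelled ERAP1+/-. Their summed level in the second library was 7.14% of WT (95% interval 6.84% to 7.47%), a 14-fold difference. A read was found for 48 of the 51 members in the WT library but for only 17 in the library labelled ERAP1+/-, and 31 members had reads in WT and none in the other library. Of the 21838 gene symbols with a read in 1 or both libraries, 19743 had one in WT and 20054 in the library labelled ERAP1+/-. Most symbols read in WT were therefore also read in the other library, unlike the members. Sprr2a1, Sprr2a2 and Sprr2e had no read in either library. All 48 members with a read had a negative log2 difference, from -9.48 (Flg) to -0.17 (Sprr4, which had 1 read), with a median of -3.85. With the 31 members at 0 set to their limit the median was -3.45, whereas the median over all 21838 genes with a read was 0.01.

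Of the 25 members that passed the level of 4, 24 were lower in the library labelled ERAP1+/- and none was higher. Over all genes past that level, 3.96% were lower and 1.39% higher. The remaining member, Sprr2a3, was within 2-fold. Only Sprr2a3 and Casp14 reached the level of 4 in the library labelled ERAP1+/-. The other 23 passed through their WT level, so that a call as lower was nearly fixed by the filter, and these counts, like those of the member groups given further on, are a description. A mean of at least 1 CPM has the same limit, since 32 of the 40 members it kept were under 1 CPM in the library labelled ERAP1+/-. Under it 38 were lower and 2, Sprr2a3 and Sprr2b, were within 2-fold, against 5.46% of all genes lower. In bulk RNA such as this, fewer cells of a type and less RNA per cell cannot be told apart.

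**Figure D1:**
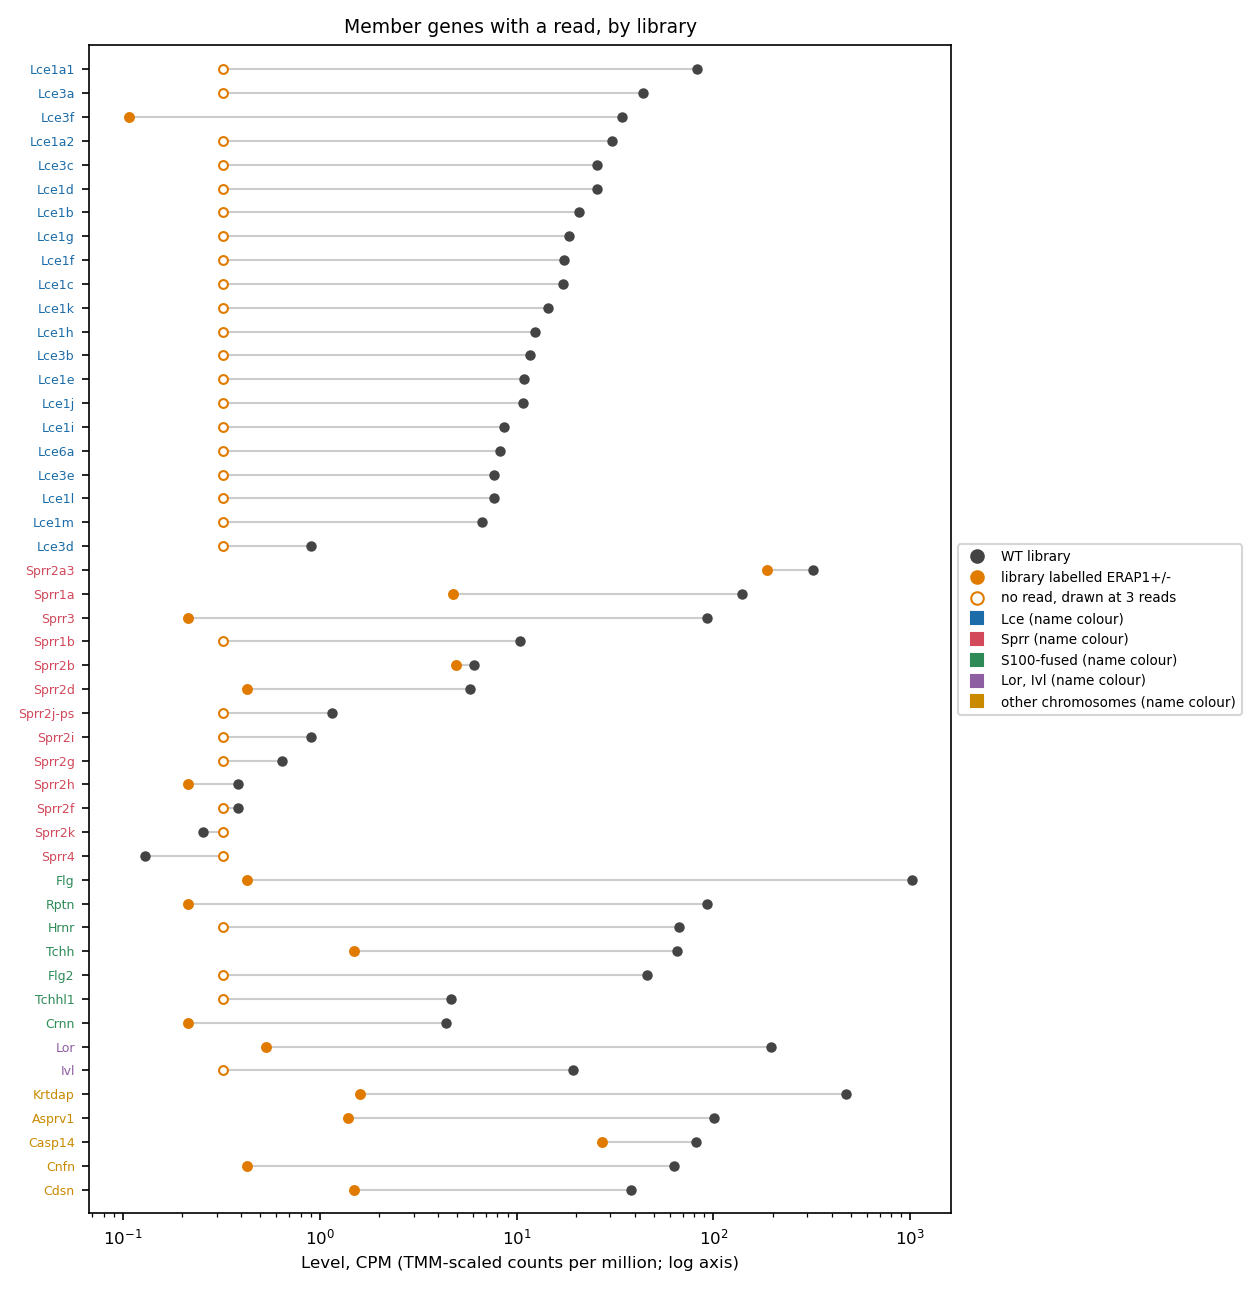
Level of each of the 48 members with a read in the WT library (dark points) and the library labelled ERAP1+/- (orange points), in CPM on a log axis, with names coloured by gene group. Open points are counts of 0 drawn at the limit of 3 reads, so for the lowest genes they can lie to the right of the WT point. Most pairs are separated by more than a factor of 10, and Sprr2a3, Sprr2b and Casp14 have the closest pairs among members above 5 CPM in WT.

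The S100-fused type genes encode long, repetitive proteins with an S100-like calcium-binding start, which associate with keratin filaments and the envelope. Their 7 members had 10129 reads in WT and 22 in the library labelled ERAP1+/-, a summed level of 0.181% of WT (0.114% to 0.275%). Flg, the gene of filaggrin, had the most reads of all members in WT, 7952 (1023 CPM), but 4 reads (0.430 CPM) in the library labelled ERAP1+/-. This is 0.0420% of WT (0.0114% to 0.108%), a log2 difference of -9.48. The promoter windows printed further on begin with that of Flg.

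Rptn, which encodes repetin, a protein that binds to the envelope, had 725 and 2 reads, or 0.230% of WT (0.0279% to 0.835%). Hrnr, the gene of hornerin, had 518 reads in WT and none in the library labelled ERAP1+/-, at least 207-fold lower. Flg2, a filaggrin relative, was at least 142-fold lower, with 357 and 0 reads. Trichohyalin differs from these by its site, since it is a matrix protein of the inner root sheath of hair and of tongue papillae. Its gene, Tchh, had 507 and 14 reads, or 2.31% of WT (1.25% to 3.91%), so it kept a larger share of its WT level than Flg or Rptn, with intervals that do not overlap. Tchhl1 (36 and 0 reads) and Crnn (34 and 2 reads), the gene of cornulin of squamous epithelium, stayed under the level of 4 in both libraries.

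Filaggrin is made as a precursor, and several members and other genes encode enzymes that act on it. Asprv1, the gene of a skin aspartic protease that cuts profilaggrin, had 783 and 13 reads, or 1.39% of WT (0.735% to 2.39%). Casp14, a caspase of the cornified layer that takes part in filaggrin breakdown, had 633 and 253 reads. Its level of 27.2 CPM in the library labelled ERAP1+/- was 33.4% of WT (28.7% to 38.7%), a 3-fold difference, and Casp14 thus lay between Sprr2a3 and the members near 0. Of a list of 10 other filaggrin processing enzymes, 5 passed the level of 4, all within 2-fold. Among them, St14, the gene of matriptase, had 931 and 830 reads, Furin 641 and 588 reads, the cathepsin gene Ctsh 591 and 857 reads, and Blmh, the gene of bleomycin hydrolase, 507 and 572 reads. All of these serve other tissues too. Hal, the gene of histidine ammonia-lyase, which turns filaggrin-derived histidine into urocanic acid, had 90 reads in WT and none in the library labelled ERAP1+/-.

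Loricrin is the main protein of the epidermal envelope and involucrin an early scaffold beneath the membrane. Lor had 1528 reads (197 CPM) in WT and 5 reads (0.537 CPM) in the library labelled ERAP1+/-, which is 0.273% of WT (0.0886% to 0.639%). Ivl was at least 60.3-fold lower, with 151 and 0 reads. Both were therefore at or near the limit of 3 reads in 1 library and well above it in the other.

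The late cornified envelope genes are small genes of the same complex whose proteins enter the envelope late. All 21 had reads in the WT library, from 7 (Lce3d) to 638 (Lce1a1) and 3234 in sum. Only 1 read, on Lce3f, fell on the family in the library labelled ERAP1+/-, so its summed level was 0.0258% of WT (0.000654% to 0.144%). All 10 Lce genes past the level of 4 were lower. Of the 5 member groups the Lce genes had the smallest remaining share, with an interval that overlaps those of the S100-fused type genes and of Lor and Ivl (0.0807% to 0.582%).

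Within the family, the Lce1 genes, the type of normal skin, had 2204 reads over 14 genes in WT and none in the library labelled ERAP1+/-. Lce1a1 was highest with 638 and 0 reads, at least 255-fold lower. Lce1a2 had 236 reads in WT, Lce1d 198, Lce1b 162, Lce1g 143, Lce1f 136, Lce1c 134 and Lce1k 113, and each had 0 in the library labelled ERAP1+/-, with limits from at least 45.1-fold (Lce1k) to at least 94.2-fold lower (Lce1a2). The other 6 Lce1 genes had 52 to 96 reads in WT and 0 in the other library. The Lce3 genes, the type linked to skin repair and inflammation, had 966 reads over 6 genes in WT and 1 in the library labelled ERAP1+/-. Lce3a was at least 136-fold lower with 342 and 0 reads, Lce3c had 200 and 0 reads, and Lce3f had 266 reads and 1 read, or 0.314% of WT (0.00792% to 1.76%). Lce6a, which belongs to neither type, had 64 and 0 reads. Since normal-skin and repair types were both near 0 in the library labelled ERAP1+/-, no difference between the types was detectable at this depth.

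**Figure D2:**
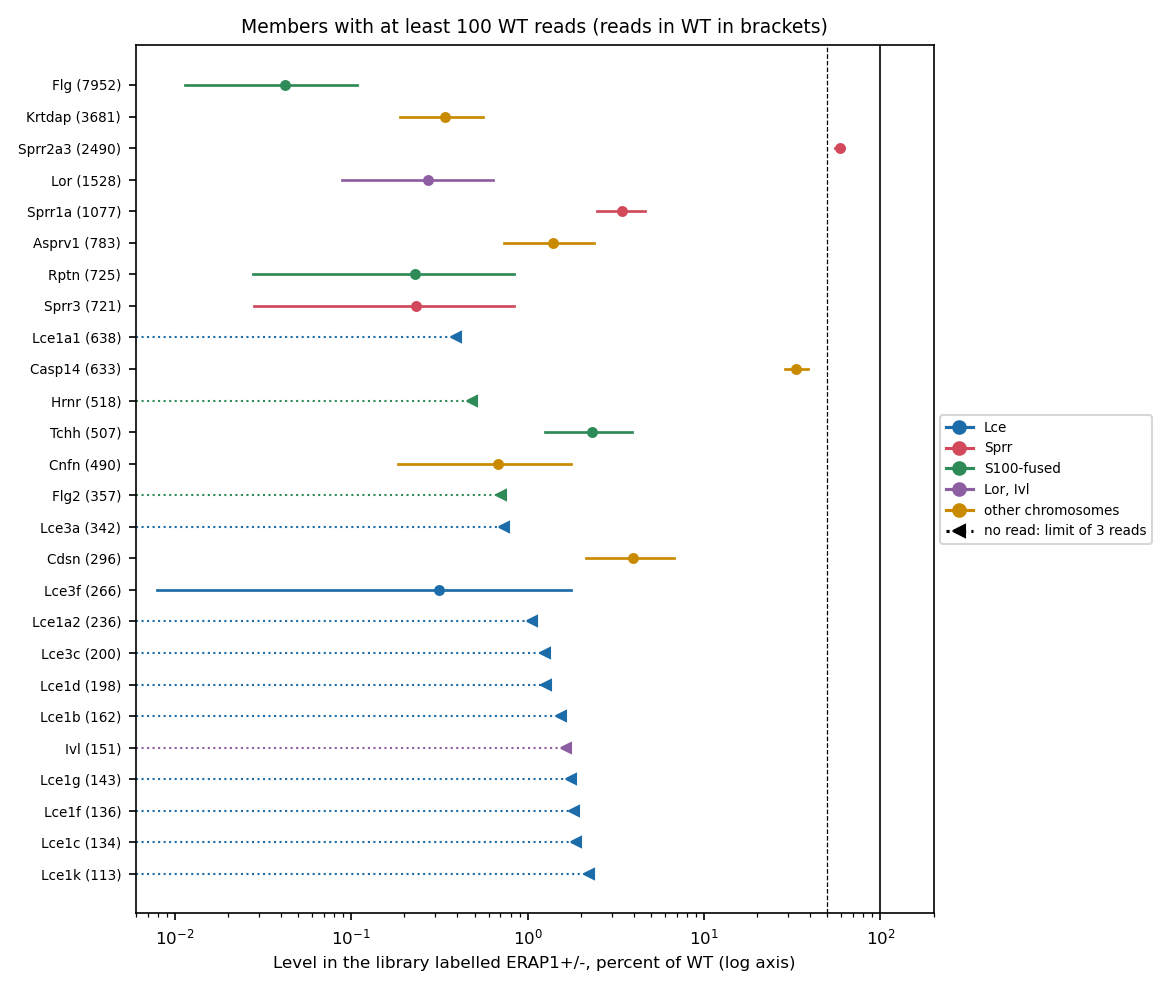
Level in the library labelled ERAP1+/- as a percent of WT (log axis) for the 26 members with at least 100 WT reads, ordered by WT reads and coloured by gene group. Horizontal lines are exact 95% intervals for counting error, arrowheads with dotted lines are the limit of 3 reads for members with no read, the solid vertical line is 100% and the dashed line 50%. Sprr2a3 lies at 58.7% and Casp14 at 33.4%, while each of the other members plotted is at 3.95% or less or has no read.

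The small proline-rich genes encode cross-bridging proteins of the envelope. Their values differed widely from gene to gene. The 16 genes had 4491 reads in WT and 1847 in the library labelled ERAP1+/-, a summed level of 34.4% of WT (32.5% to 36.3%), but 1 gene, Sprr2a3, held most of what remained. Without Sprr2a3 the sums were 2001 and 98 reads, or 4.09% of WT (3.31% to 5.01%).

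Sprr2a3 had 2490 reads (320 CPM) in WT and 1749 reads (188 CPM) in the library labelled ERAP1+/-. Its level was 58.7% of WT (55.2% to 62.4%), a log2 difference of -0.77, and it was the only member past the level of 4 within 2-fold. Sprr2b, a neighbouring gene, had 47 and 46 reads, or 81.8% of WT, with an interval of 53.2% to 125% that includes no difference. Sprr2d, the next gene along, had 45 and 4 reads, or 7.42% of WT (1.94% to 20.4%). Sprr2b and Sprr2d were thus alike in WT, while their intervals in percent of WT do not overlap. The rest of the Sprr2 genes had at most 9 reads each, too few to place them with either gene.

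Sprr1a, a gene induced in stratified epithelium under stress, had 1077 and 44 reads, or 3.41% of WT (2.46% to 4.61%). Sprr3, which is typical of oesophageal and other non-cornified squamous epithelium, had 721 and 2 reads, or 0.232% of WT (0.0280% to 0.840%). Sprr1b had 81 and 0 reads, and Sprr4 had 1 read in all. Sprr3 thus kept a smaller share than Sprr1a, with intervals that do not overlap, and both lay far below Sprr2a3.

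The counts of Sprr2a3 need care because the gene has near-identical copies. In the last 300 bases of the annotated transcripts, 39 of the 51 members shared no stretch of 75 bases, the read length, with another gene. Sprr2a1 and Sprr2a2 shared all their stretches with Sprr2a3 or with each other, and Sprr2a3 shared 58.6% of its own with them. It is not known how the counting treated shared reads. The 2490 and 1749 reads given for Sprr2a3 may therefore include reads of Sprr2a1 and Sprr2a2, or may leave shared reads out. Likewise, the absence of reads on Sprr2a1 and Sprr2a2 does not show that these 2 genes were silent. Sprr2b and Sprr2d shared no such stretch with another gene. Among the Lce genes the largest shared parts were 35.8% for Lce3d and 16.4% for Lce1b, all with other Lce genes, so the sum of the family is firmer than the values of single Lce genes.

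Of the members outside chromosome 3, Krtdap, which encodes a secreted protein of differentiating keratinocytes, had the second most reads in WT, 3681 (474 CPM), and 15 reads (1.61 CPM) in the library labelled ERAP1+/-. This is 0.340% of WT (0.190% to 0.562%), a log2 difference of -7.51. Cnfn, the gene of cornifelin, an envelope component, had 490 and 4 reads, or 0.682% of WT (0.185% to 1.76%). Cdsn, the gene of corneodesmosin, which holds cornified cells together, had 296 and 14 reads, or 3.95% of WT (2.13% to 6.73%). With Asprv1 and Casp14, all 5 were lower, and their sum was 4.25% of WT (3.77% to 4.77%), so the difference was not limited to the gene complex on chromosome 3.

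The make-up of the member reads differed between the libraries. In WT, Flg gave 31.3% of them, Krtdap 14.5%, Sprr2a3 9.80%, Lor 6.01% and Sprr1a 4.24%. In the library labelled ERAP1+/-, Sprr2a3 alone gave 80.5% (exact interval 78.7% to 82.1%) and Casp14 11.6% (10.3% to 13.1%). The S100-fused type genes went from 39.9% to 1.01% of the member reads and the Lce genes from 12.7% to 0.0460%. The sum over all members thus rests on many genes in WT and mostly on Sprr2a3 in the other library, and without Sprr2a3 it was 1.55% of WT (1.40% to 1.70%) rather than 7.14%. These are shares of reads, and a 3′ read count does not grow with transcript length.

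**Figure D3:**
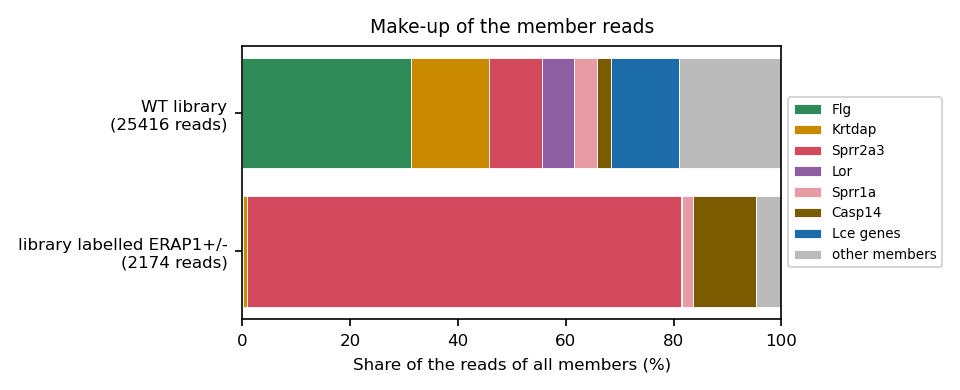
Share of the reads of all members (percent, horizontal axis) taken by each named gene, the Lce genes and the remaining members in the WT library (25416 reads) and the library labelled ERAP1+/- (2174 reads). Flg and Krtdap fill the left part of the WT bar, and Sprr2a3 (80.5%) and Casp14 (11.6%) fill most of the other bar.

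The epidermal differentiation complex was then followed along chromosome 3. The 46 members on this chromosome lie between 92080271 and 93471980 of GRCm38, an interval of 1.39 Mb with Lor at the low end and Tchhl1 at the high end. Flg lies at chr3:93273523-93293686 on the plus strand, Lor at chr3:92080271-92083142 on the minus strand, and Sprr2a3 at chr3:92285417-92291405 on the plus strand. Of the 20 members there that passed the level of 4, 19 were lower, at both ends and in the middle of the interval. Sprr2a3 and Sprr2b are close neighbours, with Sprr2d just beyond them.

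Another 11 symbols could be placed inside the interval by the annotation, of which 4 had reads. Crct1, a cysteine-rich gene of the complex, was at least 312-fold lower, with 783 and 0 reads. Kprp, the gene of a keratinocyte proline-rich protein, had 217 and 0 reads, and Prr9, a proline-rich gene next to Lor, had 103 reads and 1 read. The 11 symbols together had 1109 reads in WT and 1 in the library labelled ERAP1+/-, or 0.0753% of WT (0.00191% to 0.421%). Just past the high end lie S100a11, with 1431 and 1417 reads, and S100a10, with 4319 and 3040 reads, calcium-binding protein genes used in many tissues. Both were within 2-fold, at 82.7% and 58.8% of WT, unlike the genes of the cluster next to them. At the low end, the only gene with a read within 250 kb was Pglyrp3, with 2 and 0 reads.

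**Figure D4:**
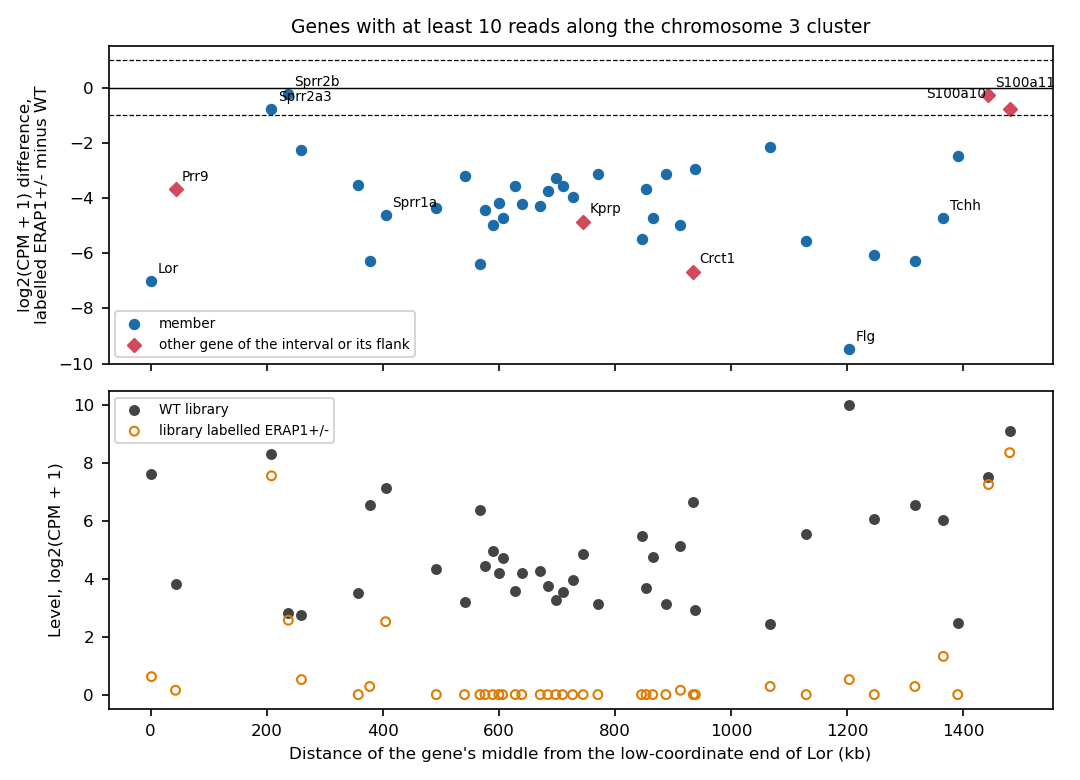
Genes with at least 10 reads over both libraries along the chromosome 3 cluster, by distance in kb from the low-coordinate end of Lor. The upper panel gives the log2(CPM + 1) difference of members (circles) and other genes (diamonds) with dashed lines at 2-fold, and the lower panel the level in each library. Members lie below the lower dashed line except Sprr2a3 and Sprr2b, and S100a11 and S100a10 beyond the cluster lie within the dashed lines.

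Promoter sequences were compared as a feature that the choice by symbol did not use. RefSeq windows of 300 bases on GRCm38.p6, from 250 bases before to 50 after the start, were found for 48 of the 51 members (not for Lce1f, Sprr2g and Sprr2j-ps). The windows of the members with the most reads in each group are shown first, followed by 2 Sprr2 genes, chosen because their values differed. Each is written from 5′ to 3′ on the gene's strand, and capitals mark matches on either strand to 3 motifs. The AP-1 response element was searched as TGANTCA. For the TATA box the letters TATAAA were used. Octamers of the kind bound by POU factors were searched as ATTTGCAT.
Flg (chr3:93273296-93273595, plus strand): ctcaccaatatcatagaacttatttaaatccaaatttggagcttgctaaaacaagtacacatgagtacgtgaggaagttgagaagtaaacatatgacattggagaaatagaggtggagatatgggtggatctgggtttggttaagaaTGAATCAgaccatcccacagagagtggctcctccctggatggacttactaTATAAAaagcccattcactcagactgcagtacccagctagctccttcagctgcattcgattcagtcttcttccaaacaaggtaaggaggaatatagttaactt
Krtdap (chr7:30787655-30787954, plus strand): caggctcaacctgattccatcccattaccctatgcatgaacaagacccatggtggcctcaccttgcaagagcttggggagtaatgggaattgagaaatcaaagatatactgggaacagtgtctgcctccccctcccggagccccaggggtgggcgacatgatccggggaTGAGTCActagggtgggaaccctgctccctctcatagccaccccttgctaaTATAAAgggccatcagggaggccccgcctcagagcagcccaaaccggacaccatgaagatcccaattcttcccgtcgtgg
Lor (chr3:92083093-92083392, minus strand): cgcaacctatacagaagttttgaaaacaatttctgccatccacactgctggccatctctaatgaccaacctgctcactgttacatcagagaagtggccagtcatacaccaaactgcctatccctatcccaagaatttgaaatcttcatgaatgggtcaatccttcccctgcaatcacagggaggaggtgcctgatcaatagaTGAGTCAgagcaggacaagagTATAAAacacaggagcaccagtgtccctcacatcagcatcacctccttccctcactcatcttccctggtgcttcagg
Ivl (chr3:92573686-92573985, minus strand): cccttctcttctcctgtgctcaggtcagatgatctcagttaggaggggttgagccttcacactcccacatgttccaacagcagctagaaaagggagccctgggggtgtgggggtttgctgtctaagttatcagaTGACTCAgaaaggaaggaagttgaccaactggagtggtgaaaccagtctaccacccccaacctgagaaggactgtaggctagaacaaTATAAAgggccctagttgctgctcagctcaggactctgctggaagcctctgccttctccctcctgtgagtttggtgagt
Lce1a1 (chr3:92648258-92648557, minus strand): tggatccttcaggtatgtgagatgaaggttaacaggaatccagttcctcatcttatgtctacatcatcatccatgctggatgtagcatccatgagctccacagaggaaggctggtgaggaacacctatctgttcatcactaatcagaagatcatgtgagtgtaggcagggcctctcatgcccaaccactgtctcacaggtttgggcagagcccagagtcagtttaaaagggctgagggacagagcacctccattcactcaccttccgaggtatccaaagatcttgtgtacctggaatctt
Sprr1a (chr3:92485832-92486131, minus strand): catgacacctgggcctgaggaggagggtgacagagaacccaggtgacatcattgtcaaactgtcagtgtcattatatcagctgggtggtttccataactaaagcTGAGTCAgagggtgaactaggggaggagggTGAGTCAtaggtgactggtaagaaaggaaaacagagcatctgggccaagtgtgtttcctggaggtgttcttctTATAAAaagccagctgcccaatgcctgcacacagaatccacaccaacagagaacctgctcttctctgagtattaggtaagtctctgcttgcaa
Sprr2a3 (chr3:92285054-92285353, plus strand): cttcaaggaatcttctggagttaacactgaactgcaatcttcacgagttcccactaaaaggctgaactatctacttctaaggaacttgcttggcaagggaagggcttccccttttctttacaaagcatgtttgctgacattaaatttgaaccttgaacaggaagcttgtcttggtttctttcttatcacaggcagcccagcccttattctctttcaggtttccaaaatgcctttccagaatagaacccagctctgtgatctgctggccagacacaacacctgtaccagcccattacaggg
Sprr2b (chr3:92316455-92316754, plus strand): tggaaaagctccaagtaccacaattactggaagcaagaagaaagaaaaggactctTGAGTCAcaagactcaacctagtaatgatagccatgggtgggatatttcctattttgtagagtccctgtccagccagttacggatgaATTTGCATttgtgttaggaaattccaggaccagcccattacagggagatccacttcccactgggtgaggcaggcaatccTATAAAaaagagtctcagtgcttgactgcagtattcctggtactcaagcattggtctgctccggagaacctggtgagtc
Sprr2d (chr3:92338890-92339189, plus strand): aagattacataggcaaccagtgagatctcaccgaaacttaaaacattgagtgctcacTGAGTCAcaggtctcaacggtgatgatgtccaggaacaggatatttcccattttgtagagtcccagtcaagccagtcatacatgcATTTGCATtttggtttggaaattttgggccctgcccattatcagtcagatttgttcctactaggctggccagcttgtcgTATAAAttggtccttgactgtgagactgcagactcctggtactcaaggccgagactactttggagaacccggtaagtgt

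AP-1 factors are dimers of Jun and Fos proteins that act at many keratinocyte genes. Their element was in 17 of 48 member windows (35.4%), against 8.98% of the windows of all 27018 genes. In Flg it began 103 bases before the start, in Krtdap 81, in Lor 48 and in Ivl 116, and Sprr1a held 2, beginning 146 and 116 bases before the start. The letters of a TATA box, anywhere in the window, were in 21 member windows (43.8%) against 15.7% of all. The elements were unevenly spread among the members. An AP-1 element was in 9 of 14 Sprr windows and none of 20 Lce windows, and the letters of the TATA box in 10 of 14 and 4 of 20. Among the Sprr windows without the box, that of Sprr2a3 ended before its place in Sprr2b, as described further on. Of those 4 Lce matches, the ones in Lce1d and Lce1m began 30 and 29 bases before the start, whereas those in Lce3e and Lce6a lay 243 and 218 bases before it, far from the usual place of a TATA box. Members of a family share their ancestry, so these windows are not independent of each other.

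The octamer was in 7 member windows (14.6%) against 1.97% of all, and all 7 were Sprr2 genes (Sprr2b, Sprr2d, Sprr2e, Sprr2f, Sprr2h, Sprr2i and Sprr2k). The KLF-type core CACCC was in 56.2% of member windows and 59.8% of all, the ETS core GGAAGT in 29.2% and 26.5%, and the grainyhead-like site AACCGGTT in no member window and 0.174% of all. In 1 member window, 1 pair of these matches overlapped. Matches to these letters are a description of the windows and not evidence of binding.

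Sprr2b and Sprr2d, which differed in how much of their WT level remained, both held an AP-1 element, an octamer and a TATA box, at nearly the same places, and were identical at 151 of 300 positions compared without gaps. The Sprr2a3 window held none of these, but its RefSeq start lies 113 bases upstream of that in GENCODE M21. The Sprr2a3 window ends in ccagcccattacaggg, a stretch that lies before the TATA box in the Sprr2b window. These windows thus do not cover the same part of the promoter, and that of Sprr2a3 does not show whether the gene has a TATA box. The start of Sprr2b in RefSeq lies 85 bases downstream of that in GENCODE. Shifted by 28 bases, the Sprr2a3 window was identical to that of Sprr2a1 over all 272 bases, and the Sprr2a1 and Sprr2a2 windows were identical over 300 bases, so these copies are alike in the promoter as well as in the transcript end.

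Other genes of the envelope and its cells were compared from lists of named genes. Apart from Evpl, Krt6a, Scd1, S100a14 and Krt20, the list genes called lower passed the level of 4 only through WT. Their calls too were largely set by the filter, so the counts per list are a description. A gene just past the level in WT can still be within 2-fold, as Ovol1 was (144 and 134 reads). Over all genes past that level, 3.96% were lower. Of the transglutaminases that cross-link the envelope, Tgm3 was within 2-fold, with 10856 reads in WT and 11560 in the library labelled ERAP1+/-, or 88.9% of WT. Tgm1, the membrane-bound enzyme of the epidermis, had 22 and 3 reads (11.4% of WT) and Tgm5 15 and 3 reads (16.7%), both under the level of 4. The scaffold and attachment genes were lower in 6 of 6 cases past that level, with Dmkn at 979 and 26 reads, Sbsn at 908 and 75, Ppl (periplakin) at 398 and 72 and Evpl (envoplakin) at 318 and 167 reads.

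Genes that act on the cohesion and shedding of cornified cells had among the lowest levels. All 8 desquamation proteases and inhibitors past the level of 4 were lower, and the list of 12 summed to 0.399% of WT (0.290% to 0.537%). Spink5, an inhibitor of kallikreins, had 4453 and 24 reads, the cystatin-type genes Cstdc5 and Cst6 1903 reads and 1 read, and 848 and 6 reads, and the kallikrein gene Klk7 735 and 0 reads. By contrast, of the 8 desmosome genes past the level, 5 were within 2-fold, among them Dsg2 (6237 and 4977 reads), Dsp (6168 and 4282), Jup (1869 and 1257) and Pkp3 (1040 and 761), which simple epithelia also use. The 3 that were lower were Dsc1 (220 and 0 reads), Dsg1b (117 and 0) and Pkp1 (228 and 95), which serve stratified epithelium. Of the barrier lipid genes, Elovl4, which makes very long fatty acids, was lower, with 677 and 9 reads.

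Regulators of epidermal differentiation were mostly within 2-fold, in 9 of the 11 that passed the level. Klf4, which also acts in goblet cells and colonocytes, had 20240 and 15474 reads, Ehf 1887 and 2293, Elf3 1764 and 1367, and Nfe2l2 1503 and 1927 reads. Grhl1 (153 and 8 reads) and Prdm1 (216 and 99 reads) were lower. Trp63, the regulator that defines stratified epithelium, had 23 reads in WT and none in the library labelled ERAP1+/-. Of the 10 S100 genes past the level, S100a14 was lower (4016 and 2157 reads), S100a8 (49 and 165) and S100a9 (52 and 171), genes of neutrophils and stressed keratinocytes, were higher, and 7 were within 2-fold, with S100a6 at 21864 and 17430, S100a10 as above and S100a16 at 2989 and 2171 reads. In a further list of 14 genes, the 5 past the level were within 2-fold, but none of these 5 lies inside the interval of the complex. Chtop (466 and 584), Ilf2 (179 and 218), Ints3 and Snapin lie at lower coordinates of chromosome 3, and Thbd (193 and 263) lies on chromosome 2. Kplce of the same list had 86 and 0 reads and stayed under the level.

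The keratin lists of stratified epithelium also had low summed levels in the library labelled ERAP1+/-. Suprabasal keratins, summed over 5 genes, were at 1.5% of WT, with Krt10 at 3922 and 72 reads, Krt1 at 1049 and 6, and Krt2 at 0 in both. Basal keratins Krt14 (623 and 97 reads), Krt5 (418 and 73) and Krt15 (296 and 18) were lower in 3 of 3 cases and summed to 11.7% of WT (10% to 13.7%). Keratins of non-cornified stratified epithelium were lower in 6 of 6 cases past the level and summed to 5.96% of WT, led by Krt13 (1631 and 94 reads), Krt4 (1056 and 9), Krt6a (996 and 160) and Krt6b (750 and 65). Krt10, Krt14 and Krt5 had 72 to 97 reads in the library labelled ERAP1+/-, but Krt1 had 6, and Krt77 and Krt16 had 0. Of the 21 Lce genes, 20 had none there, but each had far fewer WT reads than Krt10. Remaining reads of keratins and Lce genes are therefore not a like comparison.

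Hair follicle genes, 14 in all, had 1729 and 110 reads, and 11 of them were at 0 in the library labelled ERAP1+/-. Krt81 had 555 and 0 reads, Krt25 297 and 0, and Krt33b 247 and 0, and Tchp, used in many tissues, gave 107 of the 110 remaining reads. Sebaceous gland genes were lower in 3 of 5 cases past the level, with Scd1 at 1405 and 459 reads, Scd3 at 881 and 1, Soat1 at 938 and 675, and Mgst1 at 567 and 777. Skeletal muscle genes, which belong to no epithelium, were lower in 10 of 10 cases and summed to 1.78% of WT (1.54% to 2.05%), with Ttn at 2154 and 26 reads, Acta1 at 1490 and 42, Myh8 at 1259 and 1, and Tnnt3 at 1113 and 13. Melanocyte genes had 14 and 18 reads in sum, with Tyr, Tyrp1, Mlana and Slc45a2 at 0 in both, so none of the 6 could be compared. The part of these other tissues, and of the sex make-up, in the difference of the members was not tested.

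Among colon epithelial genes, 10 of 12 were within 2-fold, with Cdh1 at 18810 and 16678 reads, Car1 at 13814 and 9366, and Krt19 at 10776 and 9290. Muc2, the goblet cell mucin, was higher (12020 and 32939 reads) and Krt20, a keratin of surface colonocytes, lower (5156 and 2674 reads). The share of member reads that remained, 7.14% or 1.55% without Sprr2a3, was thus below that of any colon epithelial gene, the lowest of which was Krt20 at 43.3% of WT, and Sprr2a3 at 58.7% lay among them.

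**Figure D5:**
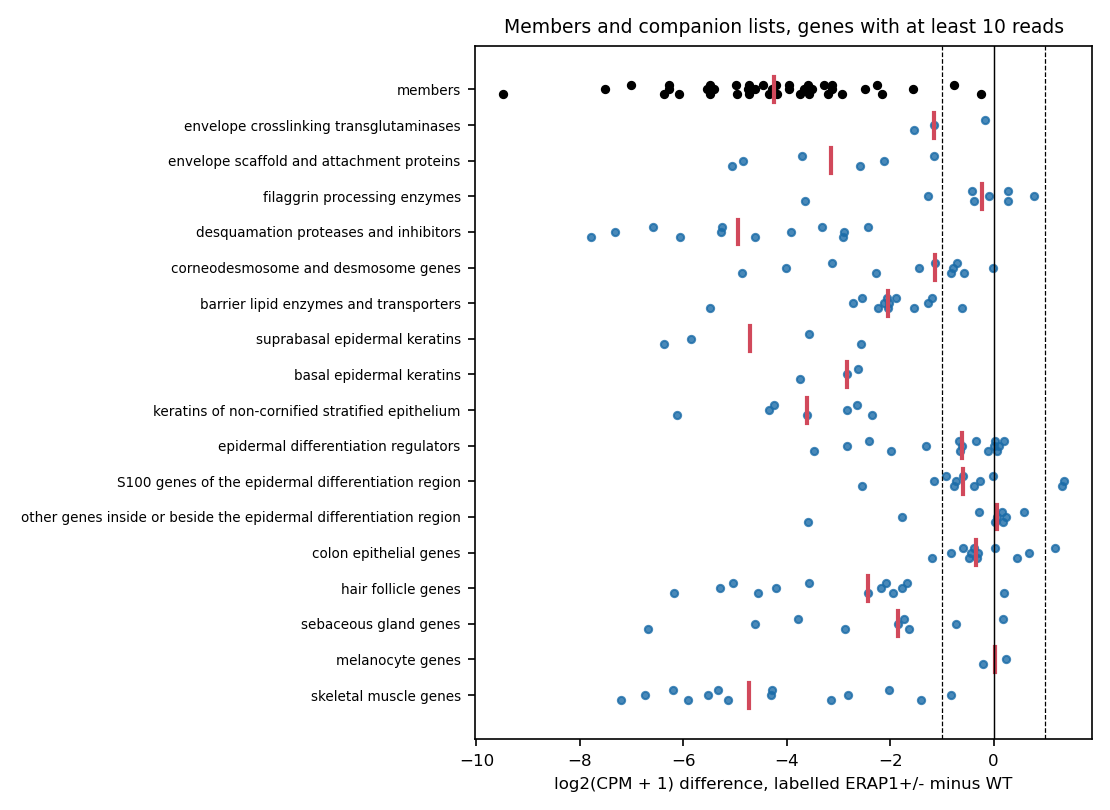
Log2(CPM + 1) difference (horizontal axis, library labelled ERAP1+/- minus WT) of the members (black) and of 17 lists of other genes (blue), 1 point per gene with at least 10 reads over both libraries. Red bars are medians of the points drawn, the solid line is no difference and dashed lines are 2-fold. Members, desquamation genes, suprabasal keratins and skeletal muscle genes lie furthest to the left, while colon epithelial genes, regulators and filaggrin processing enzymes lie near 0.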

How the data were processed

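RNA of intestine, pooled from 3 mice per genotype, was sequenced as 1 QuantSeq 3′ library per genotype. Values as deposited by the authors are raw counts: for each gene symbol, how many reads fell on it. The methods name STAR with HTSeq and, for differential expression, Bowtie2 with RSEM on GRCm38, and which of them made the counts is not stated. TMM factors (WT 0.958, library labelled ERAP1+/- 1.04) came from edgeR 4.0.16, run in R 4.3.3, and gave CPM and log2(CPM + 1). The 95% interval of a ratio is the exact binomial one given the total of both counts (scipy 1.17.1), and holds the error of counting reads, not the spread between mice. The limit for genes without a read was 3 reads. No p-value is given, as each genotype has 1 library. Both the intervals and the 2-fold rule were first tested on simulated data.

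The members and the 17 lists of other genes were chosen with earlier results of these data known. Members with at least 100 reads over both libraries were named in full, and of each list the genes with the most reads, up to 4. Hal, Trp63, Tchp, Krt2, Tyr and its 3 relatives at 0, and the lower or higher genes behind counts of 5 or fewer were named after their values were seen. Coordinates come from GENCODE M21 and, for symbols absent there, RefSeq, both on GRCm38. Promoter windows come from RefSeq (GRCm38.p6). Alternatives were DESeq2 1.42.0 size factors, total counts, TMM without member, skin and muscle genes, 0.1 as pseudocount, 4 other filters for low genes, a threshold of 4-fold and sums without the most-read member. The sum without Sprr2a3 was added after the data were examined. Protein sequences were not analysed here.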

Additional observations from a re-analysis of the deposited data

How the results depend on the processing

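The counts of 0 in the library labelled ERAP1+/- limit the folds that can be given, and no difference could be checked against replicates. No paired analysis was possible because WT and ERAP1+/- have 1 library each. The 24 members called lower, of 25 past the level of 4, became 39 of the 48 with a read when no filter on low values was set. They were 38 with at least 10 reads over both libraries, 38 of 40 with a mean of at least 1 CPM and 12 with a level of at least 6. For the genes of the other lists, 51 were lower, against 96, 96, 93 and 27 under the same 4 settings. Each setting also changes how many genes can be called. The numbers passing the read filter and the level of 6 are not given, so the counts under them are not shares. Over all genes, 3.96% were lower past the level of 4 and 5.46% under the mean filter. The median difference of the members, -3.85, was -6.74 with a pseudocount of 0.1. Their summed level, 7.14% of WT, was 7.79% with total counts, 10.4% without Flg and 1.55% without Sprr2a3, the last chosen after seeing the data. Scaling by total counts moved the median of all genes by 0.122 on the log2 scale. All 48 members with a read stayed below 0 under the 3 other scalings and the pseudocount of 0.1, and Sprr2a3 then ranged from -0.77 to -0.64 and Sprr2b from -0.29 to -0.14.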

Other observations

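The search was widened, after the data were examined, to every gene with at least 50 reads in the WT library and none in the library labelled ERAP1+/-. There were 95 such genes, and 23 of them were members of the cornified envelope group. The number of all genes with at least 50 WT reads is not given, so these counts are not shares. Another 19 were in the lists of other genes, and 53 were in neither. The highest of the 53 was Fam25a with 941 reads, followed by Crct1 of the chromosome 3 cluster with 783, 2300002M23Rik with 547, the hair keratin-associated protein genes Krtap3-3 with 467 and Krtap8-1 with 441, and the serpin gene Serpinb3a with 407 reads. Psors1c2, which lies beside Cdsn in the genome, had 122 reads in WT and none in the other library. In the opposite direction, with at least 50 reads in the library labelled ERAP1+/- and none in WT, there was 1 gene.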
